A study of Mus musculus with 2 samples.

Results

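Smyd1, Unc45b, Rbm24, Csrp3, Ccdc141, Nebl, Pgam2 and Sphkap were taken as a group of muscle genes that work beside the contractile filaments or on muscle RNA and energy, and were set against Actc1, the gene of cardiac actin. They are 8 of 32285 features and were matched by symbol. The members were chosen by their lower level in Zbtb16 knockout cells of this dataset, so that difference is described and not tested. The cells are of the mouse embryonic stem cell line D3, taken through cardiomyocyte differentiation to day 6, and droplet single-cell RNA sequencing gave 1 library of Zbtb16 knockout cells and 1 library of wild-type control cells. The purpose stated for the series was to find the subpopulation that depends on Zbtb16, a zinc finger transcription factor. The labels do not state which part of Zbtb16 was deleted or whether the knockout is 1 clone or several.

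A sarcomere is built from thin actin and thick myosin filaments held at Z-discs, and its proteins need helpers to fold, to anchor and to be spliced into their heart forms. Unc45b is a chaperone that folds the myosin head, and Smyd1 is a muscle methyltransferase that mice need for heart growth. Csrp3 (muscle LIM protein) and Nebl (nebulette, a small nebulin of the heart) sit at the Z-disc. Rbm24 is an RNA-binding protein that directs splicing of sarcomere transcripts in mouse heart, Pgam2 is the muscle form of the glycolytic enzyme phosphoglycerate mutase, and Sphkap anchors protein kinase A. Ccdc141 is a coiled-coil protein described in migrating mouse neurons, and its gene lies next to that of titin in the GENCODE M21 annotation.

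Barcodes with at least 15000 UMIs and at most 10% mitochondrial UMIs were kept as cells, where a UMI marks 1 captured RNA molecule. This gave 9449 knockout cells with a median of 30513 UMIs, against 6354 control cells with a median of 37324 UMIs. The whole libraries held 357324373 knockout and 308465930 control UMIs. Zbtb16 itself had 341 UMIs in knockout cells and 6507 in control cells, or 0.994 against 22.2 CPM, where CPM, the unit used throughout, gives the UMIs of a gene after the summed UMIs of the cells are brought to a common total. The libraries shared 16 cell barcodes, and 0 of the 97 knockout cells with at least 4 members and 0 of the 23 with at least 4 Actc1 UMIs in a draw of 7500, described below, carried one. Summed cardiomyocyte markers (14 genes) stood at 204 CPM in knockout cells and 2473 CPM in control cells, and skeletal muscle markers (8 genes) at 0.854 CPM in knockout and 1.71 CPM in control cells. The defining transcripts of heart muscle were thus present in the control library and low in the knockout one. Summed mesenchymal markers (13 genes, 8 of them at least 1.5-fold higher and 2 lower) stood at 1391 CPM in knockout and 941 CPM in control cells. Summed haematopoietic markers (8 genes, 4 of them higher) stood at 150.01 CPM in knockout and 0.591 CPM in control cells, pluripotency markers (9 genes, 5 higher) at 148 CPM in knockout and 64.1 CPM in control cells, and smooth muscle markers (7 genes, 2 higher and 2 lower) at 1183 CPM in knockout and 772 CPM in control cells. The part of these cell types in the results was not tested. With 1 library a group no difference has a replicate check or a test, and every interval below is a 95% interval that covers counting error only.

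The promoters of Smyd1, Csrp3 (its first listed start) and Actc1 are shown to let their letters be compared. Smyd1 came up early and Csrp3 late among the members along the rank of control cells described below. Each runs from 250 bases before to 50 bases after a RefSeq transcript start, read 5′ to 3′ along the gene, on GRCm38.p6; the matrices carry no coordinates and the submitters' notes name GRCm39. They lie at chr6:71262232-71262531 (minus strand, Smyd1), chr7:48848002-48848301 (minus strand, Csrp3) and chr2:114052826-114053125 (minus strand, Actc1). Capitals mark matches to the searched motifs, which in Smyd1 are NKX2 and TATA, in Csrp3 NKX2, and in Actc1 the CArG box and TATA.
Smyd1: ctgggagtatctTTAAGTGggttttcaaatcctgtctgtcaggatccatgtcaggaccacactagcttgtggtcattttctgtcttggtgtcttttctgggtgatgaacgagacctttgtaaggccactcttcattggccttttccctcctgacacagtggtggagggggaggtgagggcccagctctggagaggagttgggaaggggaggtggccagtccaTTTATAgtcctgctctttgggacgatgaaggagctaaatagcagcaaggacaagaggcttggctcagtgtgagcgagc
Csrp3: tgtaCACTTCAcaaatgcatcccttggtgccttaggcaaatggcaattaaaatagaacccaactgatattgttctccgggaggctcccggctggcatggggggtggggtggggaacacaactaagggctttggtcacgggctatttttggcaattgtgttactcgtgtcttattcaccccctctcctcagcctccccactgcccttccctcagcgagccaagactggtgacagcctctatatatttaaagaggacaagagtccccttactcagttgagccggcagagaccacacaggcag
Actc1: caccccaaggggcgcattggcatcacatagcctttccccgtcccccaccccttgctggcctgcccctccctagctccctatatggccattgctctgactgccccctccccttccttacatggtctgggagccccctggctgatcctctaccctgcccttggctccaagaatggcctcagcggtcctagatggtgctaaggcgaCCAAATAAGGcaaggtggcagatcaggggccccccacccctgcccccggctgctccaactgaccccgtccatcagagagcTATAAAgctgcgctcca

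All 8 members matched RefSeq promoters, 12 in number because Csrp3 has 2 and Nebl has 4. They were searched on both strands for motifs of heart and muscle factors, and the matches did not overlap each other. The T-box motif (AGGTGT) stood in a promoter of 4 of the 8 members (Csrp3, Nebl, Rbm24 and Unc45b), and in 15.7% of the 27025 genes with a listed promoter (4 of 12 member promoters and 13.7% of all 32851). The shares that follow are of genes with the motif in at least 1 promoter, and a gene with several promoters has more letters to search. The NKX2 motif (CACTTNA) stood in those of Csrp3 and Smyd1, against 13.1% of all genes, at -246 to -240 and -238 to -232 from the start. The E-box CAGCTG stood in those of Ccdc141 and Pgam2 (18.3% of all). The GATA motif (AGATAA) stood in those of Ccdc141 and Nebl (12.7% of all). The TATA motif (TATAAA) stood in Smyd1 alone among the members and in Actc1 (15.7% of all). In Smyd1 it lay at -28 to -23 on the strand opposite to the gene, and in Actc1 at 34 to 39 after the listed start. By name, the CArG box stood in 1 promoter of Nebl and in that of Actc1 (1.81% of all). The MEF2 motif was searched in 1 form only, which stood in none of the members (4.23% of all). Other forms of the MEF2 motif were not searched, so their absence from the member promoters is not shown. Sphkap held none of the 7 motifs. The members thus shared no searched motif that all of them held, and no binding data bear on these letters.

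Summed over all cells, the 8 genes were lower in knockout cells without exception, by different amounts. Pgam2 stood at 3.27 CPM in knockout cells (95% interval 3.09 to 3.47) and 77.9 CPM in control cells (76.9 to 79.0), a log2 ratio of -4.21. Rbm24 stood at 7.13 CPM (6.85 to 7.42) in knockout cells against 134 CPM (133 to 135) in control cells, a log2 ratio of -4.05. Csrp3 stood at 1.84 CPM in knockout and 43.0 CPM in control cells, a log2 ratio of -3.95. These came closest to Actc1, which stood at 7.05 CPM in knockout cells against 173 CPM in control cells, a log2 ratio of -4.44.

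The folding and modifying factors and the remaining members kept somewhat more. Unc45b stood at 6.99 CPM in knockout and 83.8 CPM in control cells (log2 ratio -3.41), and Smyd1 at 6.01 CPM in knockout and 71.4 CPM in control cells (-3.37). Ccdc141 stood at 5.29 CPM in knockout and 64.1 CPM in control cells (-3.37), and Sphkap at 3.55 CPM in knockout and 43.8 CPM in control cells (-3.30). Nebl stood apart, at 16.04 CPM in knockout cells and 71.5 CPM in control cells, which left 22.4% of the control level (21.8% to 23.1%), while the other members kept between 4.20% (Pgam2) and 8.42% (Smyd1). All 8 members passed the 1.5-fold limit in the lower direction, where 6.75% of the 10289 genes at 5 CPM or more in either library did; the choice of the members fixed that count, so nothing is read from it. Their median log2 ratio was -3.39, against 0.02 over all genes. In sums over a whole culture, fewer muscle cells and less RNA per cell cannot be told apart.

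**Figure D1:**
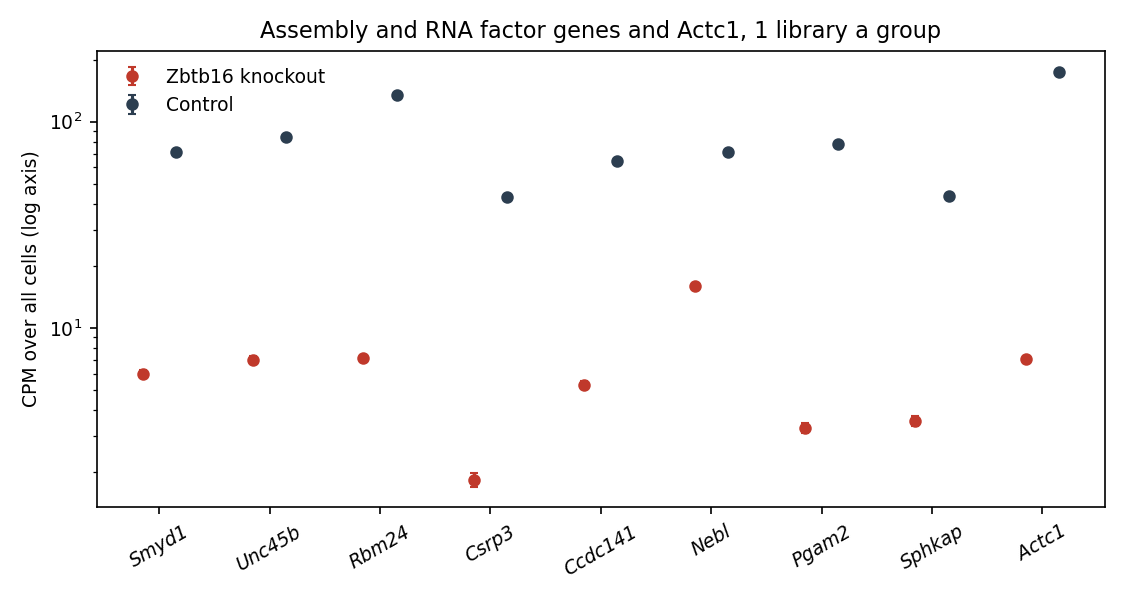
Level over all cells of the 8 genes and Actc1 in CPM (vertical log axis), with 1 point for the Zbtb16 knockout library (left, red) and 1 for the control library (right, dark) per gene; bars are 95% Poisson intervals and are mostly smaller than the points. Every knockout point lies below its control point, and the gap is smallest for Nebl (16.04 against 71.5 CPM).

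The share of cells with a UMI was lower in knockout cells for each of the 8 genes too. With each cell thinned to 15000 UMIs, which left out no cell, Rbm24 was seen in 6.78% of knockout cells and 55.6% of control cells, and Csrp3 in 2.53% of knockout and 26.6% of control cells. Nebl was seen in 18.6% of knockout and 51.5% of control cells, and Actc1 in 1.74% of knockout and 24.5% of control cells. Unthinned, the shares for Nebl were 33.8% of knockout and 71.5% of control cells. Barcodes of 10 to 100 UMIs, which hold free RNA, had the members between 1.203 CPM (Csrp3) and 17.8 CPM (Nebl) in the knockout library, and between 43.2 CPM (Csrp3) and 129.9 CPM (Rbm24) in the control library. Unc45b had 11.6 CPM in those knockout barcodes, against 6.99 CPM in knockout cells. Endothelial-like cells of the knockout library (423 cells, median 38889 UMIs) had Nebl in 1.65%, Csrp3 in 0.236% and Smyd1 in 0.946% of cells, well under the knockout library as a whole. Rbm24 and Unc45b were seen there in 11.3% and 9.69% of cells, no less than in all knockout cells (6.78% and 8.40%). Their low share over the whole knockout library was therefore not read as muscle expression. Whether their UMIs in endothelial-like cells were stray RNA or made in those cells was not tested.

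The RNA that remained in the knockout was held by few cells for some genes and by many for others. The top 1% of knockout cells (94 cells, ranked for each gene) held 92.5% of the Actc1 UMIs, 53.2% of those of Pgam2, 38.0% of Sphkap, 36.6% of Csrp3 and 36.3% of Rbm24. For Nebl the top 1% held only 11.2%. Such a share also rises when a gene has few UMIs, and Csrp3 had 631 in knockout cells where Nebl had 5503. The members are therefore not ranked by it. In control cells the top 1% (64 cells) held 32.6% of the Actc1 UMIs and between 7.59% (Ccdc141) and 16.7% (Csrp3) of those of a member. Remaining Actc1 was therefore concentrated in knockout cells, and remaining Nebl was spread.

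The order of the genes was read in control cells only. Cells were ranked by the summed share of 12 other heart muscle transcripts (Myl7, Tnnt2, Tnni1, Tnnc1, Myl4, Myl3, Ttn, Actn2, Myh6, Myh7, Mybpc3 and Ryr2), which include neither a member nor Actc1, and put into 20 equal bins. For each gene the percentile was taken at which its level had reached 50% of the way from the lowest to the highest bin. Such a rank orders cells of 1 day and is not a measured time. It holds all 6354 control cells, of which 27.6% were cardiomyocyte-like and 41.0% mesenchymal-like by the clusters described below. Which cell types filled the low percentiles was not tested. Smyd1 reached that level first, at the 71.9th percentile, with 8.32 CPM in the lowest bin and 199 CPM in the highest. Sphkap followed at 81.5, Rbm24 at 83.2, Ccdc141 at 85.5, Unc45b at 87.3, Pgam2 at 87.9, Nebl at 88.7 and Csrp3 at 90.0. Actc1 came at 94.2, with 5.15 CPM in the lowest bin and 3081 CPM in the highest.

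All 8 members thus reached 50% before Actc1, but so did 98.6% of the 221 genes that had at least 5 CPM over all control cells and rose at least 4-fold from the lowest to the highest bin. The members' median percentile was 86.4, against 86.3 over those 221 genes. Coming before Actc1 was therefore not particular to the members, and Actc1 was among the latest genes to rise. Among the ranking genes themselves, Tnni1 reached 50% at 78.9 and Ttn at 91.2, while Actn2 (94.3), Myl3 (94.5) and Myh6 (94.7) came no earlier than Actc1. Neighbouring members between Ccdc141 and Nebl lay within 3.26 percentile points of each other, less than the 5 points that 1 bin spans. Csrp3 lay 1.29 points after Nebl, so its last place is under that width too, and it was lost to Pgam2 with 10 bins and to Nebl with a mitochondrial limit of 5%. Sphkap and Rbm24 also lay within 1 bin of each other, and with 40 bins Sphkap came after both Rbm24 and Ccdc141. At 10% of the rise the members spread further, from 23.1 for Smyd1 and 40.0 for Nebl to 62.3 for Csrp3, against 86.3 for Actc1, and 97.7% of the rising genes came before Actc1. Mesenchymal-like control cells had Smyd1 at 35.9 CPM and Nebl at 44.5 CPM, so these early places are not read as onset within heart muscle.

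**Figure D2:**
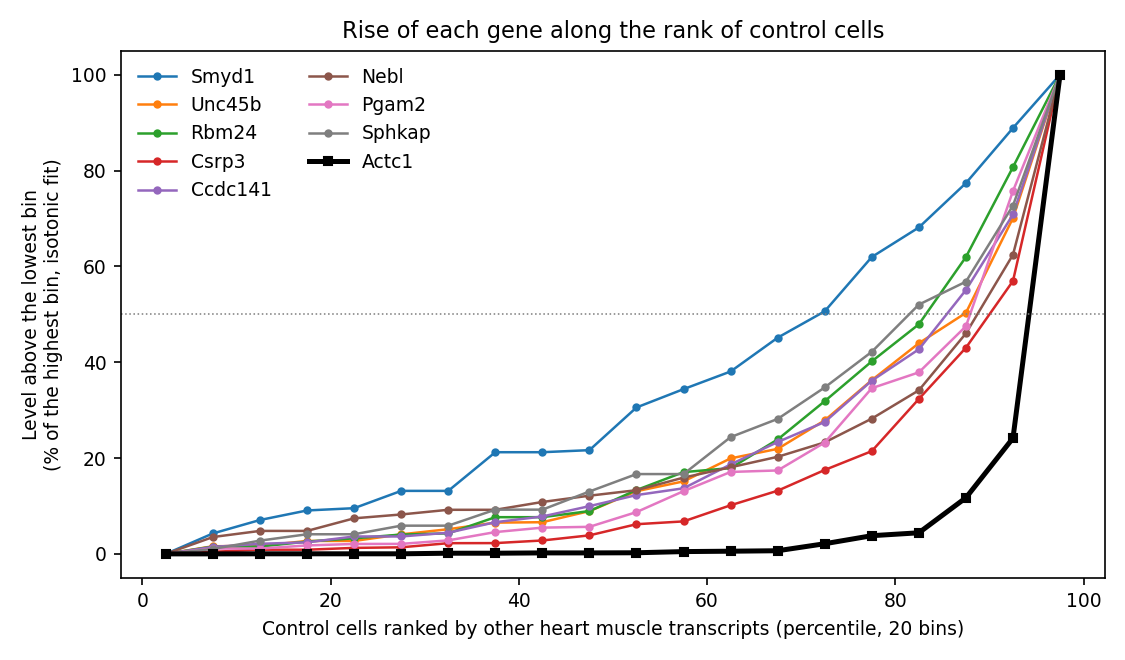
Control cells only: level above the lowest bin as a percentage of the highest bin (vertical axis, after a non-decreasing fit) against the percentile of the rank by 12 other heart muscle transcripts (horizontal axis, 20 bins), 1 line a gene and Actc1 in heavy black. Smyd1 (blue) crosses the dotted 50% line at 71.9, Csrp3 (red) at 90.0 and Actc1 at 94.2.

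Cells were also binned by their own Actc1 count. A random 7500 UMIs of each cell were used to count Actc1, and Actc1 itself was measured on the other UMIs. In the 5169 control cells with 0 Actc1 UMIs in that draw, Smyd1 stood at 58.2 CPM, which was 32.2% of its level in the 359 control cells with 8 or more (181 CPM). Sphkap stood at 22.1% there, Rbm24 at 18.6%, Nebl at 18.4%, Unc45b at 18.2%, Ccdc141 at 17.9%, Pgam2 at 14.1% and Csrp3 at 9.30%, while Actc1 stood at 0.397%. The value of Actc1 is set by the binning, so the members are not ordered against it here. Over the 220 other rising genes the median share was 26.9%, against 18.3% for the members, and all 220 were above Actc1. Among the members Smyd1 had the largest share of its level in cells with 0 Actc1 UMIs in the draw, and Csrp3 the smallest. After thinning, 2235 control cells had a Rbm24 UMI and no Actc1 UMI, while 259 had Actc1 and no Rbm24. For Csrp3 these numbers were nearly even, at 858 and 724. They follow how many control cells showed each gene (3534 for Rbm24, 1692 for Csrp3 and 1558 for Actc1), so no order is read from them.

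**Figure D3:**
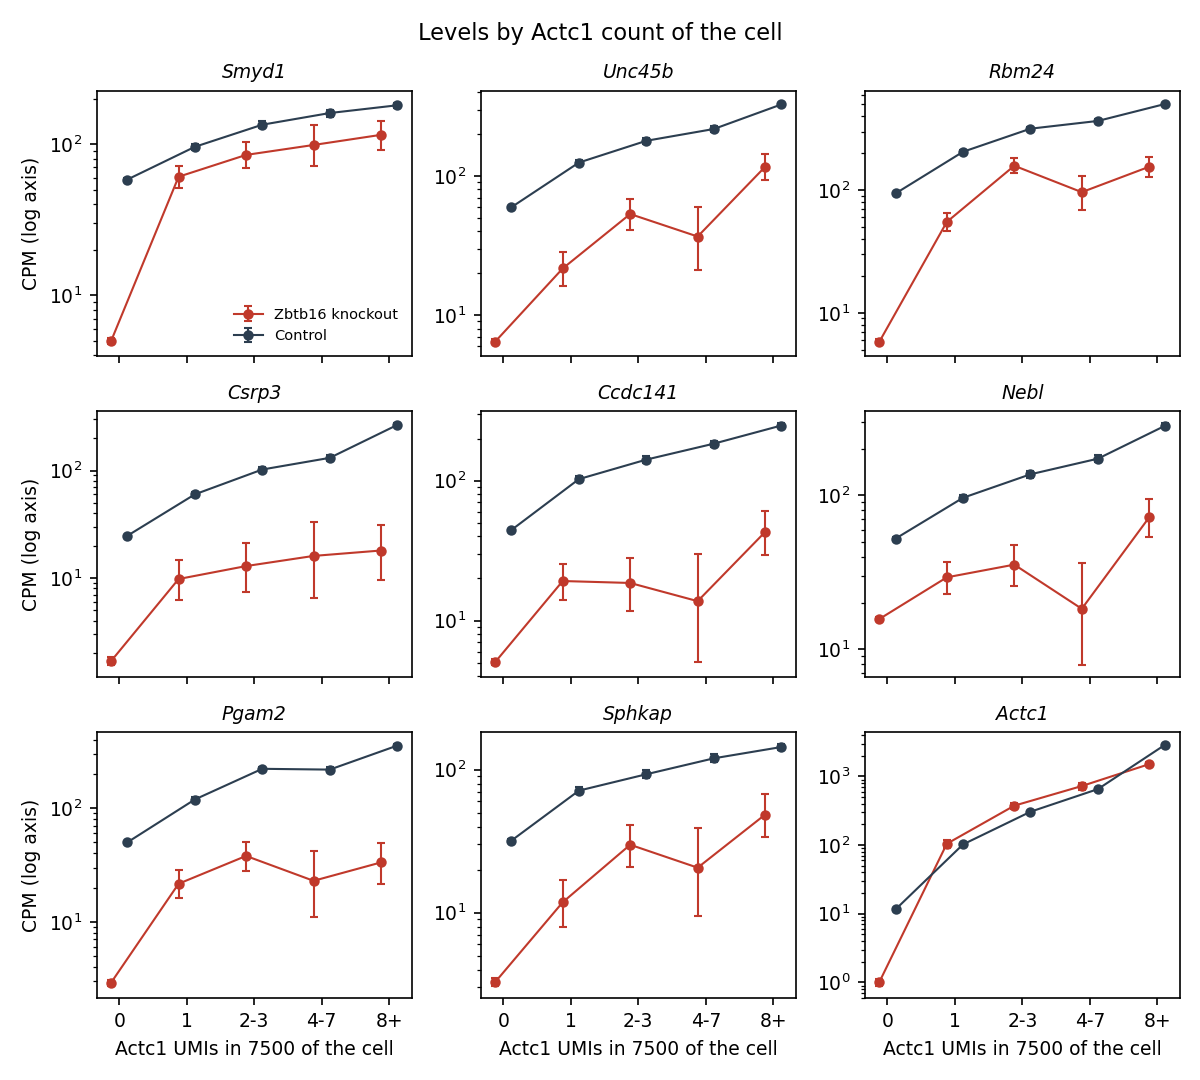
CPM (log axis) of the 8 genes and Actc1 in cells binned by Actc1 UMIs in 7500 of the cell's UMIs, from 0 to 8 or more (horizontal axis), for the Zbtb16 knockout library (red) and the control library (dark), with 95% Poisson intervals. In each of the 8 member panels the knockout points lie below the control points in every bin; the knockout bins hold 9345, 55, 26, 8 and 15 cells.

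Clusters were made without the members, Actc1, Zbtb16 or mitochondrial genes, and 2 of them (7 and 8) were cardiomyocyte-like by markers such as Myl7, Ttn and Myl4. They held 4 and 3 knockout cells, against 882 and 869 control cells. Cluster 10, an unnamed control cluster of 554 cells led by Igfbpl1, Isl1 and Irx5, had Actc1 at 15.5 CPM, only 1.21% of its level in cluster 7. There Smyd1 stood at 94.4 CPM, which was 65.1% of cluster 7 (61.8% to 68.5%), and Rbm24 at 147 CPM, which was 37.8% of cluster 7. Sphkap stood at 32.9%, Ccdc141 at 28.6%, Nebl at 24.9%, Unc45b at 24.3% and Pgam2 at 13.8% of cluster 7. Csrp3 stood at 3.46 CPM, or 1.94% of cluster 7 (1.56% to 2.39%), and it was the only member under 10% there.

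Cluster 6 (960 control cells, led by Sfrp5 and with Isl1 and Myocd) had more of every member than cluster 10 did, with Actc1 at 2.68% of cluster 7. Smyd1 stood there at 75.0%, Rbm24 at 52.3%, Sphkap at 50.7% and Csrp3 at 17.4% of cluster 7. In cluster 8 Smyd1 was at 97.4% of cluster 7 (93.5% to 101%), the other members between 52.5% (Csrp3) and 78.9% (Rbm24), and Actc1 at 23.4%. The members therefore differed among themselves from cluster to cluster. In cluster 8 Smyd1 was near its cluster 7 level, where Actc1 was at 23.4% of its own. Csrp3 was the member with the smallest share of its cluster 7 level in clusters 8, 6 and 10. The mesenchymal-like control clusters 3 and 5 had Csrp3 at 19.9 and 19.2 CPM, above the 3.46 CPM of cluster 10, although Rbm24 was lower there (43.4 and 20.1 CPM) than in cluster 10. Cells of cluster 7 had a median depth of 0.693 times the control library's median, and those of cluster 10 had 1.14 times.

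**Figure D4:**
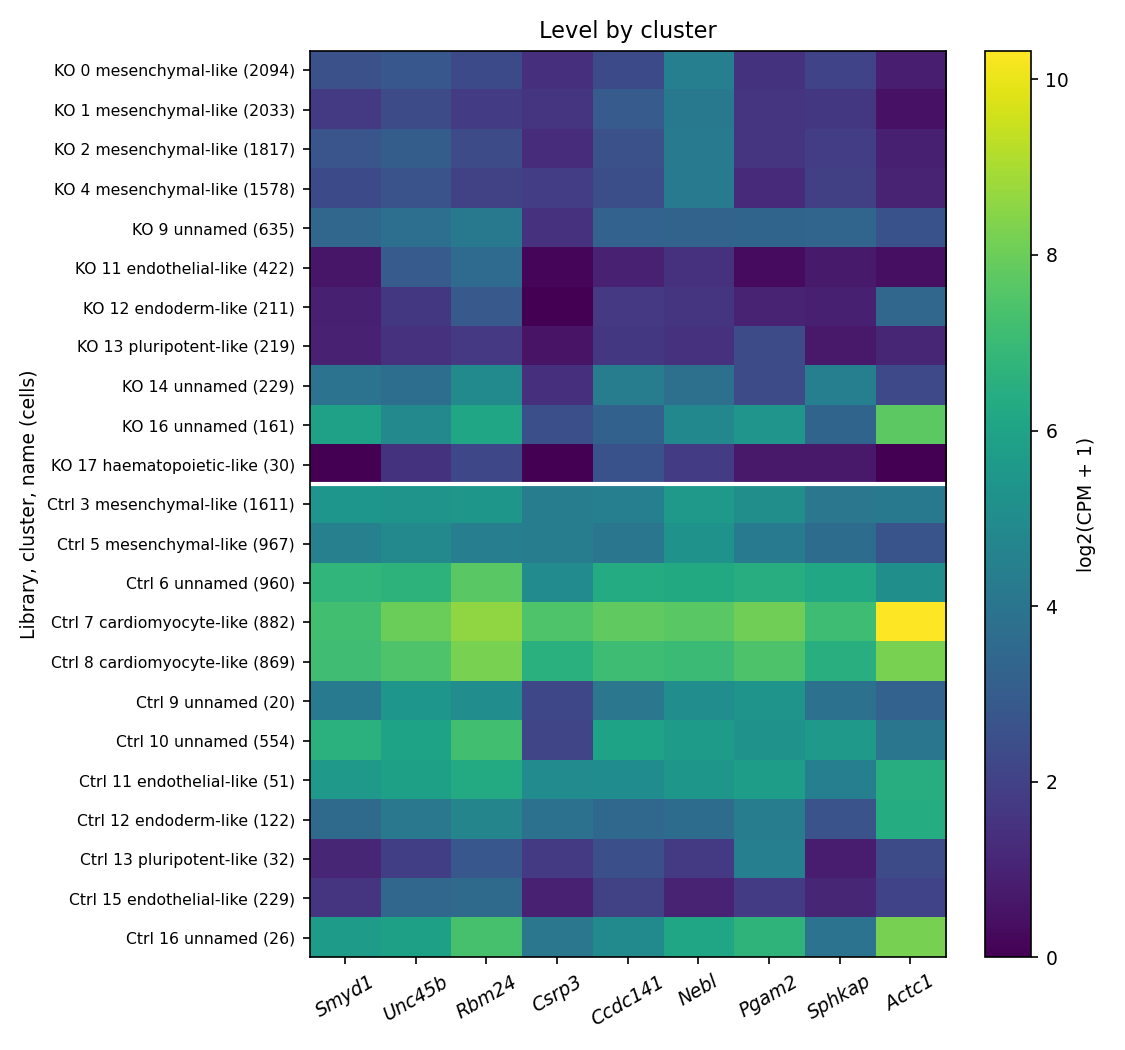
Level of each gene, as log2(CPM + 1), in each cluster with at least 20 cells of a library; rows are clusters of the Zbtb16 knockout library (KO, above the white line) and of the control library (Ctrl, below it), with cell numbers in brackets. Colours compare clusters within a column; Smyd1 and Rbm24 are bright in control clusters 6 and 10 where Actc1 is dark, and among knockout clusters only 16 approaches them.

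In the knockout library the members remained at low levels that differed by cell type. The 4 mesenchymal-like knockout clusters (0, 1, 2 and 4, together most knockout cells) had Nebl between 16.9 and 20.7 CPM, against 46.8 and 38.9 CPM in the mesenchymal-like control clusters 3 and 5. In the same knockout clusters Smyd1 stood between 2.39 and 5.69 CPM, against 41.6 and 21.6 CPM in control clusters 3 and 5. Nebl stood at only 1.77 CPM (1.25 to 2.44) in the endothelial-like knockout cluster 11, so its remaining RNA was not even across cell types. The class is held by different clusters in the libraries, and the names rest on rebuilt clusters.

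In endothelial-like cells Rbm24 had levels in the 2 libraries whose intervals overlapped. It stood at 11.1 CPM (9.76 to 12.7) in the 422 knockout cells of cluster 11 and at 10.9 CPM (9.14 to 12.8) in the 229 control cells of cluster 15. Unc45b stood at 6.70 CPM (5.64 to 7.90) in the knockout and 9.70 CPM (8.07 to 11.6) in the control cluster. The other 6 members were at most 1.77 CPM in the knockout and 2.97 CPM in the control cluster. Unc45b was thus somewhat lower in the knockout cluster, with intervals that did not overlap. Free RNA barcodes held Unc45b at 11.6 CPM in the knockout and 105 CPM in the control library, and Rbm24 at 7.70 and 130 CPM. The part of free RNA in these cluster levels was not tested, so neither comparison is read as a level made in endothelial-like cells. Another 51 control cells fell in cluster 11 with a median of 65446 UMIs and had all 8 members between 21.1 and 78.2 CPM and Actc1 at 84.7 CPM. Doublets were not called, and their part in those 51 cells was not tested.

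The knockout clusters with most of the members were small. The unnamed cluster 16 (161 knockout and 26 control cells), led by Ankrd1, Anxa1, Tagln and Myh7, had Rbm24 at 65.6 CPM in its knockout and 158 CPM in its control cells. Smyd1 stood there at 59.3 CPM in knockout cells (54.1 to 64.8) and 50.4 CPM in control cells (41.0 to 61.2), intervals that overlap, and Actc1 at 209 CPM in knockout and 293 CPM in control cells. The knockout cells of this cluster held 70.5% of all Actc1 UMIs of their library, 29.9% of those of Pgam2, 23.4% of Smyd1 and 4.05% of Nebl, in 1.70% of the cells. Cluster 14 (229 knockout cells, unnamed, led by Hoxb1, Psd and Plagl1) had Rbm24 at 29.4 CPM, Sphkap at 21.1 CPM, Ccdc141 at 19.6 CPM and Smyd1 at 14.2 CPM, with Actc1 at 3.88 CPM. The members that stood out thus differed between these clusters: Smyd1, Rbm24 and Pgam2 in cluster 16, and Rbm24, Sphkap and Ccdc141 in cluster 14.

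Counted per cell after thinning, a knockout cell had a median of 0 of the 8 members and a control cell a median of 3. At least 4 members were seen in 97 knockout cells, or 1.03% (0.833% to 1.25%), against 3103 control cells, or 48.8% (47.6% to 50.1%). Among cells with no Actc1 UMI they were seen in 65 knockout cells (0.700%) and 1828 control cells (38.1%). Of the 97 knockout cells, 30 were in cluster 16, 20 in cluster 2, 12 in cluster 9, 9 in cluster 14 and 7 in the cardiomyocyte-like clusters 7 and 8. Those 7 were all the knockout cells of these clusters. Mest and Igf2, imprinted genes that differed widely between the libraries, were looked at there after their values had been seen. The 7 cells had 1 UMI of Mest and 1 of Zbtb16, or 4.04 CPM each, against 964 and 22.5 CPM in the 1751 control cells of these clusters, and Igf2 at 2087 CPM in the knockout against 545 CPM in the control cells. Of the members, 2 were lower in these 7 knockout cells with intervals that did not overlap. Pgam2 stood at 84.8 CPM (52.5 to 129.6) in the 7 knockout cells and 211 CPM in the control cells, and Csrp3 at 64.6 CPM (36.9 to 105) in the knockout and 125 CPM (122 to 127) in the control cells. Nebl was higher, at 238 CPM (181 to 307) in the knockout and 157 CPM (154 to 160.03) in the control cells, and so was Sphkap, at 198 CPM (146 to 262) in the knockout and 106 CPM (104 to 109) in the control cells. The other members had intervals that overlapped: Rbm24 stood at 311 CPM in knockout and 338 CPM in control cells, Unc45b at 242 CPM in knockout and 206 CPM in control cells, Ccdc141 at 174 CPM in knockout and 169 CPM in control cells, and Smyd1 at 157 CPM in knockout and 143 CPM in control cells. These values rest on few cells, and 1 cell held 29 of the 60 Unc45b UMIs. For the 4 members called lower or higher, the top cell of each gene held 9 of 16 UMIs (Csrp3), 8 of 21 (Pgam2), 18 of 59 (Nebl) and 15 of 49 (Sphkap).

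Cells with 4 or more Actc1 UMIs in 7500 asked what the members did where Actc1 was present. There were 23 such knockout cells and 560 such control cells, with Actc1 at 1209 CPM in knockout and 1982 CPM in control cells. All 8 members were at least 1.5-fold lower in the knockout cells, where 16.3% of 10512 genes were, and their median log2 ratio was -1.99 against 0.04 over all genes, of which 20.4% were at least 1.5-fold higher. The members were chosen for a lower level over cells that include these, so nothing is read from that count. Nor were the cells alike in other heart muscle transcripts: summed cardiomyocyte markers other than Actc1 (13 genes) stood at 2252 CPM in the 23 knockout cells and 11895 CPM in the 560 control cells, with Myl7 at 379 CPM in knockout and 4321 CPM in control cells, and their part in the members' difference was not tested. Smyd1 kept most, at 109 CPM in knockout and 173 CPM in control cells, which was 63.1% (52.4% to 75.4%). Unc45b kept 30.5%, Rbm24 29.6%, Sphkap 28.3%, Nebl 21.6% and Ccdc141 14.4%. Some of these moved with the processing: the log2 ratio of Sphkap was -1.80, but -0.997 with equal weight per cell and -2.97 for cells of at least 25000 UMIs, and that of Ccdc141 was -2.76, but -3.55 with a mitochondrial limit of 5%. Pgam2 kept 9.83% (6.80% to 13.7%) and Csrp3 8.17% (4.98% to 12.6%). In the narrower range of 4 to 7 Actc1 UMIs, with Actc1 at 724 CPM in 8 knockout cells and 654 CPM in 201 control cells, Smyd1 stood at 98.7 CPM in knockout and 161 CPM in control cells, Rbm24 at 96.4 CPM in knockout and 367 CPM in control cells and Csrp3 at 16.1 CPM in knockout and 131 CPM in control cells.

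Those 23 knockout cells were of mixed kinds, and the count rested on cluster 16. It held 18 of them, against 5 of the 560 control cells. In these 18 cells Tagln, a smooth muscle marker, stood at 4419 CPM and Ttn at 190 CPM, while over all Actc1-high cells the summed smooth muscle markers stood at 9311 CPM in knockout and 2955 CPM in control cells. The 18 cells had Csrp3 at 7.02 CPM, or 3.28% of the control cells outside the cluster (1.32% to 6.75%), Ccdc141 at 4.90% and Smyd1 at 59.4%. In the 5 knockout cells of other clusters 3 of 8 members (Rbm24, Csrp3 and Pgam2) were 1.5-fold lower. The share over all genes was not taken for these 5 cells, so that count is a description. Unc45b stood there at 96.5% (70.0% to 130%) of the 555 control cells, and Sphkap at 111% (70.8% to 165%). Both were seen in 3 of the 5 cells, and 1 cell held 29 of the 44 Unc45b UMIs and 1 cell 12 of the 24 Sphkap UMIs. Pgam2 stood low in both sets, at 8.97% in the 18 cells and 14.6% (5.86% to 30.04%) in the 5. Of those 5 cells, 3 were cardiomyocyte-like and 2 in cluster 9, and 3 of the 5 had a Smyd1 UMI.

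**Figure D5:**
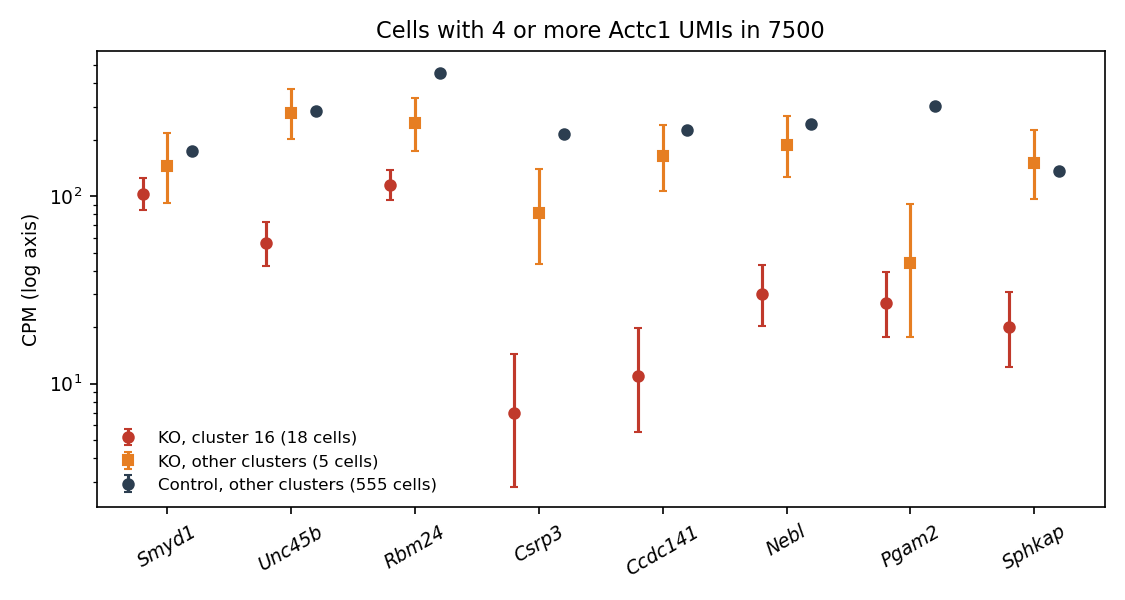
CPM (log axis) of the 8 genes in cells with 4 or more Actc1 UMIs in 7500, for 18 Zbtb16 knockout cells in cluster 16 (red circles), 5 knockout cells in other clusters (orange squares) and 555 control cells outside cluster 16 (dark circles), with 95% Poisson intervals. The orange intervals reach the control points for Smyd1, Unc45b, Ccdc141, Nebl and Sphkap and stay below them for Rbm24, Csrp3 and Pgam2.

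Close relatives of the members did not share their difference as a list. Of 12 relatives at 5 CPM or more, 1 was at least 1.5-fold lower in knockout cells and 2 were higher, with a median log2 ratio of 0.06, where 6.75% of all genes were lower and 12.7% higher. Rbm38, the RNA-binding protein most like Rbm24, was the lower one, at 11.8 CPM in knockout and 33.1 CPM in control cells. Csrp1, a LIM protein of smooth muscle, stood at 204 CPM in knockout and 134 CPM in control cells, and the kinase anchor Akap11 at 76.5 CPM in knockout and 38.9 CPM in control cells. The general forms stayed within 1.5-fold. Unc45a, the general myosin chaperone, stood at 16.4 CPM in knockout and 16.7 CPM in control cells, and Pgam1, the general phosphoglycerate mutase, at 746 CPM in knockout and 803 CPM in control cells. Log2 ratios were -0.09 for Csrp2, -0.24 for Pgam5, 0.52 for Lasp1 and between -0.01 and 0.16 for Smyd2, Smyd3, Smyd4 and Smyd5. Neb, nebulin itself, stood at 1.36 CPM in knockout and 0.961 CPM in control cells, and Nrap had 9 UMIs in knockout and 7 in control cells, so neither was measured well.

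Other genes of sarcomere assembly included lower ones. Of 31 listed, 21 were at 5 CPM or more in either library, of which 13 were lower and 0 higher at 1.5-fold. Over all genes at that level 6.75% were lower and 12.7% higher. Of those 13, 9 reached 5 CPM in the control library only, which makes a lower knockout level a condition of being counted, and 4 (Ttn, Nexn, Popdc2 and Pdlim5) reached it in both, so the count is a description. Ttn, the titin spring, stood at 10.6 CPM in knockout and 289 CPM in control cells, Mybpc3, a myosin-binding protein, at 0.192 CPM in knockout and 15.5 CPM in control cells, and Popdc2 at 34.4 CPM in knockout and 97.0 CPM in control cells. Pdlim7 (93.6 CPM in knockout and 127 CPM in control cells) and Fhl1 (65.3 CPM in knockout and 63.2 CPM in control cells), both of which are also made outside heart, stayed within 1.5-fold. Of 6 muscle energy genes 4 were lower, 3 of them at 5 CPM or more in both libraries. Among those 3, Eno3, the muscle enolase, stood at 16.7 CPM in knockout and 50.3 CPM in control cells. Ldhb, also among them, stood at 78.1 CPM in knockout and 194 CPM in control cells. Cox7a1, which reached 5 CPM in the control library only, stood at 1.87 CPM in knockout and 12.9 CPM in control cells. Pfkm and Fabp3 had log2 ratios of -0.26 and -0.51.

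Chaperones, RNA-binding proteins and kinase anchors were mostly within 1.5-fold, where 6.75% of all genes were lower and 12.7% higher. Of 10 chaperones 1 was higher and 2 were lower, Hspb7 at 0.568 CPM in knockout and 14.6 CPM in control cells and Hspb2 at 12.7 CPM in knockout and 28.7 CPM in control cells. The general chaperone Hsp90ab1, which works with Unc45b, stood at 4366 CPM in knockout and 4480 CPM in control cells. Hsp90aa1 had a log2 ratio of 0.24, Dnajb6 of 0.08 and Stip1 of 0.07. Of 15 RNA-binding genes 1 was lower, the titin splicing factor Rbm20 at 9.52 CPM in knockout and 21.3 CPM in control cells, and 2 were higher, with Hnrnpu at 1125 CPM in knockout and 735 CPM in control cells. The splicing regulators Qk and Ptbp1 had log2 ratios of 0.05 and 0.02, and Rbpms of -0.15. Of 12 protein kinase A genes none was lower and 1 was higher, Akap12 at 361 CPM in knockout and 124 CPM in control cells. Prkar1a had a log2 ratio of 0.11, Akap8 of 0.22, Akap9 of 0.36 and Akap13 of 0.43. Over all 76 measured genes of the 6 lists 21 were lower and 6 higher, to be set beside the same shares over all genes. Of the 21, 10 were at 5 CPM or more in both libraries.

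Across 19 cell groups (clusters by library with at least 50 cells), the members' levels went together to different degrees. Pearson's r of log2(CPM + 1) was highest for Ccdc141 with Sphkap (0.98) and lowest for Rbm24 with Nebl (0.74), and with Actc1 it ran from 0.66 for Nebl to 0.90 for Pgam2. The groups share 2 libraries and were clustered together, so these values describe them only. Among 8298 genes the closest were Lpar3 for Smyd1 (0.96), Nr2f1 for Unc45b (0.96), Cap2 for Rbm24 (0.95), Hspb7 for Csrp3 (0.96), Lbh for Ccdc141 (0.97), Lpar3 for Nebl (0.96), Ttn for Pgam2 (0.97) and Kcnh7 for Sphkap (0.97). Hsd3b6 was among the 3 closest genes of Unc45b, Csrp3 and Pgam2, and Myocd, a coactivator of muscle genes, among those of Rbm24 and Pgam2. Cap2 is a coding neighbour of Rbm24 on chromosome 13. Smyd1 overlaps Krcc1 on the other strand, which stood at 90.9 CPM in knockout and 133 CPM in control cells. The labels do not state whether the counting used strand, so reads of that pair may not be separable.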

How the data were processed

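Droplet libraries were made from trypsinised cells with an MGI DNBelab kit, per the labels' protocols. The authors deposited unfiltered matrices of raw UMI counts per gene and barcode, written by Cell Ranger 4 per the file headers; the submitters' processing notes name Cell Ranger, R 4.1.1 and GRCm39. The members, gene lists and markers were chosen with earlier results of these data known. Counts were summed over cells, scaled to CPM and compared as log2 ratios of CPM plus 1, with exact Poisson and Clopper-Pearson intervals. Cells were clustered without integration (scanpy 1.11.5, leidenalg 0.10.2; 2000 variable genes, 30 components, 15 neighbours, resolution 1), and a cluster was named from at least 3 markers among its 10 leading genes at 20 CPM or more. Doublets were not removed. The script was checked on simulated counts. Named genes are all members, their relatives, and per list 4 genes by level and 2 by ratio. edgeR 4.0.16 served only for TMM scaling, and free RNA barcodes held 10 to 100 UMIs.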

Additional observations from a re-analysis of the deposited data

How the results depend on the processing

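All 8 members stayed at least 1.5-fold lower over all cells with cell limits of 25000 UMIs or 5% mitochondrial UMIs, a prior of 0.1, equal weight per cell, TMM scaling and, chosen after seeing the data, in cells with 0 Actc1 UMIs. The log2 ratio of Nebl ran from -2.21 to -1.67 over these alternatives. All 8 came before Actc1 along the rank with the same 2 cell limits, 10 or 40 bins, levels of 25% or 10%, no subtraction, other ranking genes or scores and, chosen after seeing the data, only clusters 6, 7, 8 and 10. With the main settings 98.6% of the 221 rising genes came before Actc1 at 50% of the rise, and 97.7% at 10%. Coming before it is therefore not particular to the members. In cells chosen by their Actc1 UMIs, which did not equal out the Actc1 level, the count of lower members was 8 with the same 2 cell limits, a prior of 0.1, equal weight per cell, TMM scaling, 5000 UMIs or another draw for binning, from 2 Actc1 UMIs and for 4 to 7 Actc1 UMIs. It was 3 without cluster 16, where the log2 ratio of Sphkap turned to 0.15. The share over all genes was not taken for these alternatives, so the counts are a description. The alternative without cluster 16 and the range of 4 to 7 were chosen after seeing the data, and the cause was not tested. The count of 21 lower genes among the other lists was 5 when only genes at 50 CPM were counted, because fewer genes were tested. No paired analysis was possible because a single library stands for each group, which leaves nothing to pair. Values for cells with 4 or more Actc1 UMIs rest on 23 knockout cells, and in the 5 of them outside cluster 16 Pgam2 had only 7 UMIs.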

Other observations

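Some of the members' UMIs outside muscle cells came from single cells. Pgam2 had 53 UMIs in the 32 pluripotent-like control cells, and 47 of them were in 1 cell. Actc1 had 112 UMIs in the 211 endoderm-like knockout cells, and 111 of them were in 1 cell, while Csrp3 had 0 UMIs there, a count that allows up to 3. In the unnamed knockout cluster 9 (635 cells, led by Sox2, Hoxc10 and Lefty2), Rbm24 stood at 16.9 CPM, Unc45b at 12.8 CPM and Sphkap at 9.30 CPM, against 32.0, 41.8 and 13.5 CPM in its 20 control cells. Nebl stood there at 8.63 CPM in knockout cells, below the 16.9 to 20.7 CPM of the mesenchymal-like knockout clusters.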
